A study of Mus musculus with 6 samples.

Results

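The 10 genes described here are the listed members of the mammalian circadian clock, Per1, Per2, Per3, Cry1, Cry2, Arntl (also named Bmal1), Clock, Nr1d1, Nr1d2 and Dbp. They were found by symbol among the 27179 Entrez genes of the deposited expression table, and all 10 were matched. RNA of mouse lens was sequenced on postnatal day 1. The Gclc KO group and the Gclc CON group had 3 libraries each, KO 1 to 3 and CON 1 to 3 here, and all were of the strain B6/FVB. The product of Gclc is the catalytic part of glutamate-cysteine ligase, which makes the precursor of glutathione, and the series concerns impaired glutathione synthesis, eye development and PAX6. The labels give neither the construct or promoter behind the KO, nor the number of pups per library, nor the time of day at which lenses were taken, and p-values here measure only the spread between these 6 libraries.

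The clock is a feedback loop of transcription. CLOCK and ARNTL form a dimer that binds E-box sequences and switches on the Per and Cry genes, whose proteins return to the nucleus and block the dimer. In a second loop the same dimer drives Nr1d1 and Nr1d2, which encode the repressors REV-ERB alpha and beta, and these hold down Arntl against the activating ROR receptors. DBP, an activator that binds D-box sequences, carries the rhythm to output genes. Most tissues of adult mice run such a clock, and the levels of its transcripts depend strongly on the hour, whereas in fetal and newborn tissues rhythms are still maturing.

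RefSeq promoter windows (GRCm38.p6, 250 bases before to 50 bases after a start site) were found for 9 of the 10 members, as 13 windows, and Per2 had no entry. They were searched on both strands for the E-box CACGTG, the D-box TTATGTAA or TTACGTAA, the core of the ROR and REV-ERB element as TAGGTCA or TGGGTCA, and the cAMP element TGACGTCA. Of all 32851 windows in the table, 7.15% held this E-box, 1.06% a D-box, 6.45% the ROR core and 1.79% the cAMP element. Among the members, 2 held the E-box (Per1 and Cry1), 1 the D-box (Per3), 1 the ROR core (Arntl) and 0 the cAMP element. The other window of Per1 and that of Arntl held none of these motifs. Counted by window, the matches lay in 2, 1, 1 and 0 of the 13. These 4 windows are shown with the matched letters in capitals, together with those of the output gene Prok2 and of Ciart, a repressor of the CLOCK dimer, as examples of E-boxes in other clock genes. The Per1 E-box began at -166 and the Cry1 E-box at -60 from the start site. Per3 had D-boxes at -205 and -158, and Arntl its ROR core at 31. Prok2 had 1 E-box, at -135, and Ciart had E-boxes at -116, -58 and -44. Other clock genes described further on also held matches, E-boxes in Tspan4 (-51), Bhlhe41 (-153) and the 2 windows of Tef (-127 and -138), the ROR core in Nfil3 (-12) and the cAMP element in Hlf (-9). A match describes letters only and is not a measured site.
Per1, chr11:69098699-69098998, plus strand: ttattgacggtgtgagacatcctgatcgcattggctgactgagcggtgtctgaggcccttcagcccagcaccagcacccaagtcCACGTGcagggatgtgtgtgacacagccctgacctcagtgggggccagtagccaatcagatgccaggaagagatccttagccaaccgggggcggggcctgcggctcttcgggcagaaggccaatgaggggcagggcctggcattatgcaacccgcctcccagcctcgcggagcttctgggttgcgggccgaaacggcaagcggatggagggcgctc
Cry1, chr10:85185005-85185304, minus strand: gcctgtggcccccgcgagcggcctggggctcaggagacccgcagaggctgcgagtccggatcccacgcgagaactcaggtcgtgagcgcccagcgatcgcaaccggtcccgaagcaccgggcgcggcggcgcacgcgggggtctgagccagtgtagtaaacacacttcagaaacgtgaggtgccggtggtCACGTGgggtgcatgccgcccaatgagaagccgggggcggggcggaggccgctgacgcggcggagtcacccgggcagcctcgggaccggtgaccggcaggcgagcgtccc
Per3, chr4:151044616-151044915, minus strand: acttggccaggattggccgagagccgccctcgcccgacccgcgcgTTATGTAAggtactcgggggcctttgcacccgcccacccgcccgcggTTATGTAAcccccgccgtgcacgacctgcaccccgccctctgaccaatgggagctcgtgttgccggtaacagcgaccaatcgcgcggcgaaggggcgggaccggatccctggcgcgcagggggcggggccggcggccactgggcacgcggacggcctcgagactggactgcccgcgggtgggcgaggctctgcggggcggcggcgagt
Arntl, chr7:113207261-113207560, plus strand: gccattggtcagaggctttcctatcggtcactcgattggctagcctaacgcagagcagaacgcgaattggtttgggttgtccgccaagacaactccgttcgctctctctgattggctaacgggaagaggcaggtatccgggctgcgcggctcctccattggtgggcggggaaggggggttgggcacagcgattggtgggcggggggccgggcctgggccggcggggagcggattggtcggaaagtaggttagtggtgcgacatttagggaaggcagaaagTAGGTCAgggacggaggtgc
Prok2, chr6:99726343-99726642, minus strand: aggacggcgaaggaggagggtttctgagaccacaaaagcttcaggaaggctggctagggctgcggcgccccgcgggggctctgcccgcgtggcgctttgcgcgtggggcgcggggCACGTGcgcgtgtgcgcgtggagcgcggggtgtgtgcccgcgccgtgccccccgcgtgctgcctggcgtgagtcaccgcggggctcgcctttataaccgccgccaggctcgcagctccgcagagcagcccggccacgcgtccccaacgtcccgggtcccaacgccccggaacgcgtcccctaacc
Ciart, chr3:95882179-95882478, minus strand: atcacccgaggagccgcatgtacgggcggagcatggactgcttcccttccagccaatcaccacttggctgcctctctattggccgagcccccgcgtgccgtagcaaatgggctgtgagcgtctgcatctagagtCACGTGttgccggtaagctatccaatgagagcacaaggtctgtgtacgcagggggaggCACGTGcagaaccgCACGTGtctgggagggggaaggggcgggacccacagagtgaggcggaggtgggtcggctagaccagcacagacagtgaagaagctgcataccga

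The KO libraries held 45842484 to 61219009 reads in genes and the CON libraries 20361430 to 43384443, with CON 2 the shallowest. The column name of CON 2 also ends in a different tag from the one shared by all other libraries. Whether this difference goes with its values was not tested. The deposited values are on a log2 scale after a variance-stabilising transformation, and on that scale genes with few reads differ by less than their read ratios. Reads were recovered from them, and normalised reads are reads divided by the library's size factor. Gclc had 18.2, 73.5 and 59.2 normalised reads in KO 1, 2 and 3, against 181.7, 288.4 and 175.7 in CON 1 to 3 (log2 difference -1.01, SE 0.28, limma adjusted p = 0.0387). All 10 lens fibre markers had reads in every library, so the defining transcripts of the labelled tissue were present. Their summed level was 474798 to 642320 normalised reads in KO and 1064384 to 1471439 in CON. For all 10, every KO value lay below every CON value, as for 14.1% of all genes tested. In the limma fit described below, 9 of the 10 were called lower, where 4.39% of all tested genes were. The most abundant were Crygs, a crystallin (means of 207234 in KO and 367960 in CON), and Bfsp2, a filament protein. Crystallin transcripts took 40.52% to 47.53% of the reads in KO and 59.51% to 68.37% in CON. The part of such shifts in the clock gene levels was not tested.

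Of the 10 clock genes, 9 had enough signal to be tested, with a mean at least 1 log2 unit above the value of a gene without reads, and none was called higher or lower in KO lenses. The test was limma on the deposited values, with Benjamini-Hochberg adjustment over the 11468 genes tested and a threshold of 0.05. In the same fit 11.3% of all tested genes were called. An unadjusted p under 0.05 was reached by 3 of the 9 members (Clock, Cry1 and Cry2), where 26.4% of all tested genes reached it. The log2 difference was above 0 in 5 of the 9, and their median was 0.03, equal to the median of 0.03 over all tested genes. All KO values lay above all CON values for 1 member, Clock, and for 16.9% of all tested genes. They lay below for 0 members and for 14.1% of all tested genes, which makes 31.0% with groups apart in either direction. In bulk lens, fewer cells of a type and less RNA per cell cannot be told apart.

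**Figure D1:**
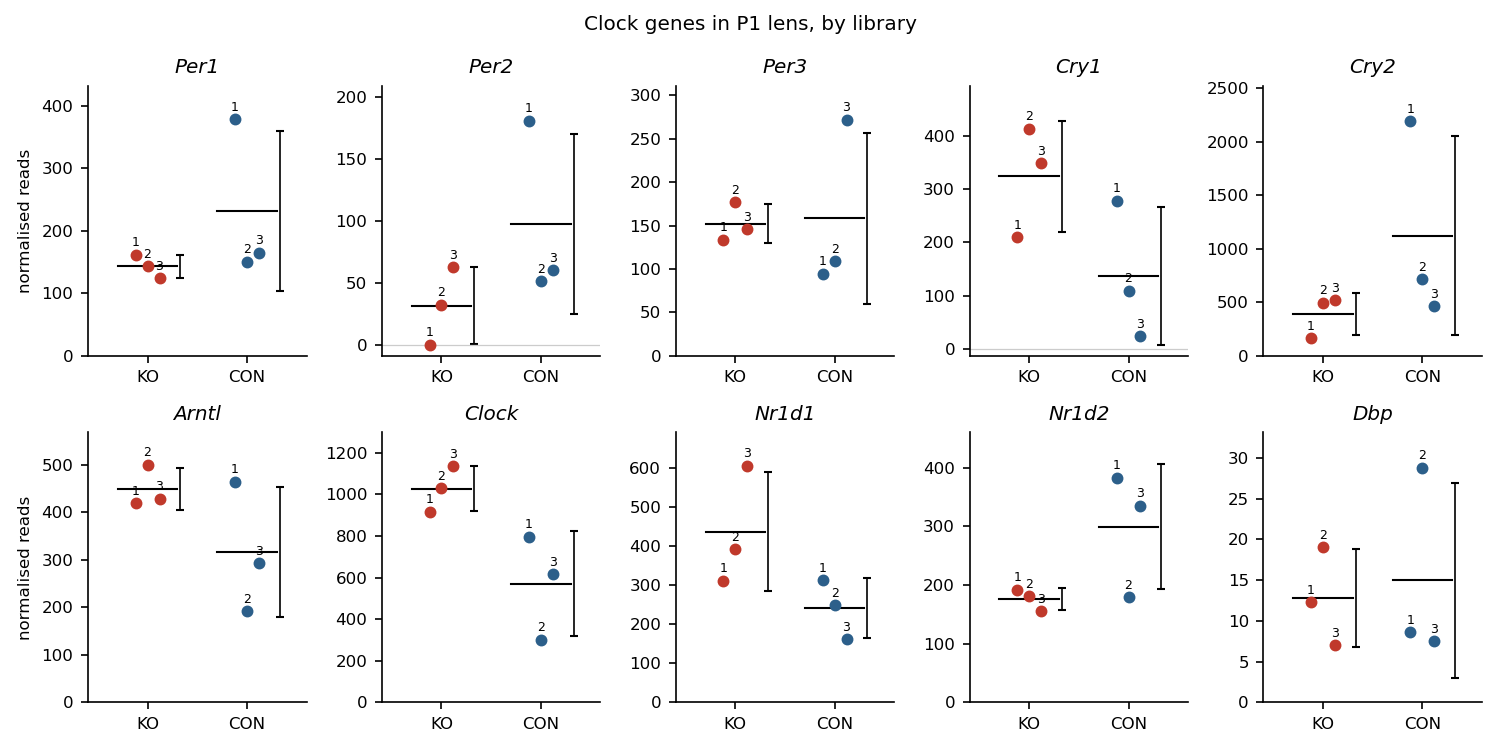
Normalised reads (vertical axes, each starting at or just under 0) of the 10 clock genes in the KO and CON libraries, where points are libraries with their replicate number, horizontal bars are group means and the vertical bars beside them are ± 1 SD (n = 3). Only for Clock do all KO libraries, 917.3 to 1137, lie above all CON libraries, 301.3 to 796.6.

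The activating arm of the loop is Clock and Arntl. Clock, which encodes the partner of ARNTL in the activating dimer, had 917.3, 1030 and 1137 normalised reads in KO 1, 2 and 3, against 796.6, 301.3 and 615.8 in CON 1 to 3. Every KO library was above every CON library, and the lowest CON value came from the shallowest library, with 94 reads. The log2 difference was 0.76 (SE 0.28, 95% interval 0.14 to 1.38, limma adjusted p = 0.112). Without CON 1, the highest control, limma gave 0.98 and the gene passed (adjusted p = 0.0347), and without CON 2 it gave 0.46 (adjusted p = 0.297). Arntl, its obligate partner, had 419.3, 500.2 and 429.0 normalised reads in KO 1, 2 and 3, against 464.4, 192.3 and 292.9 in CON 1 to 3. CON 1 lay within the KO range and the other controls below it (log2 difference 0.40, SE 0.27, 95% interval -0.20 to 1.00, limma adjusted p = 0.385). The Arntl difference was 0.62 without CON 1 and 0.20 without CON 2 (limma adjusted p = 0.119 and 0.711).

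The Period genes encode the repressors that scaffold the inhibitory complex, and Per1 and Per2 also respond rapidly to cAMP signals and glucocorticoids. Per1 had 161.9, 143.3 and 124.3 normalised reads in KO 1, 2 and 3, against 378.4, 150.6 and 165.2 in CON 1 to 3. CON 1 alone stood high, and the other controls lay within or just above the KO range (log2 difference -0.34, SE 0.29, 95% interval -0.98 to 0.29, limma adjusted p = 0.494). Without CON 1 the Per1 difference was -0.08. Per2 had 0, 32.4 and 62.4 normalised reads in KO 1, 2 and 3, against 180.6, 51.3 and 60.1 in CON 1 to 3. KO 1 held 0 reads of Per2, which allows up to 1.76 normalised reads when 3 reads are taken as the limit for counting error, if the mates of a pair were not both counted, whereas KO 2 and KO 3 held 53 and 116 reads. CON 1 again held the highest level, and KO 3 lay above CON 2 and CON 3 (log2 difference -0.69, SE 0.35, 95% interval -1.46 to 0.08, limma adjusted p = 0.243). Without KO 1 the Per2 difference was -0.36, and without CON 1 it was -0.43.

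Per3, a Period gene that mice can lose with little effect on rhythm, had 133.7, 176.9 and 145.9 normalised reads in KO 1, 2 and 3, against 94.6, 109.0 and 271.9 in CON 1 to 3. The KO values sat inside the CON range (log2 difference 0.03, SE 0.29, 95% interval -0.61 to 0.66, limma adjusted p = 0.971). CON 3, not CON 1, was the high control for this gene.

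The Cryptochrome genes encode strong repressors of the CLOCK dimer, and the 2 genes had group differences of opposite sign, neither of them called. Cry1 had 209.4, 413.2 and 348.2 normalised reads in KO 1, 2 and 3, against 278.4, 109.0 and 24.0 in CON 1 to 3. KO 1 lay below CON 1, so the groups overlapped, and the low controls rested on 34 reads in CON 2 and 16 in CON 3 (log2 difference 0.89, SE 0.37, 95% interval 0.07 to 1.70, limma adjusted p = 0.155). Without CON 1 the Cry1 difference was 1.27 and passed (limma adjusted p = 0.0289), and without CON 3 it was 0.50 (adjusted p = 0.377). Cry2 had 166.6, 495.9 and 518.9 normalised reads in KO 1, 2 and 3, against 2189, 714.7 and 467.1 in CON 1 to 3. CON 3 lay inside the KO range, and CON 1 was far above every other library (log2 difference -1.06, SE 0.45, 95% interval -2.04 to -0.07, limma adjusted p = 0.161). Without CON 1 the Cry2 difference was -0.50 (limma adjusted p = 0.361).

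A ratio of 2 genes within a library is free of the scaling between libraries. Cry1 over Cry2, in normalised reads, was 1.26, 0.833 and 0.671 in KO 1, 2 and 3, against 0.127, 0.152 and 0.0514 in CON 1 to 3. All 3 KO ratios were above all 3 CON ratios, although neither gene separated the groups on its own. On the deposited log2 scale Cry1 minus Cry2 was 0.19, -0.20 and -0.42 in KO 1, 2 and 3, against -2.42, -1.77 and -2.06 in CON 1 to 3. This pair was picked after its values were seen and no test was made of it. Of the 36 pairs of tested members, 16 had ratios of normalised reads that kept the groups apart, and 20 did not, among them Arntl over Nr1d1 and Per1 over Per2. The 16 were all the pairs of 1 gene from Per1, Per2, Cry2 and Nr1d2 with 1 from Cry1, Arntl, Clock and Nr1d1, and each time the gene of the first set was the lower in KO relative to its partner. These sets were read off the same values, the pairs share genes, and Per2 rests on 0 reads in KO 1. The share of pairs with groups apart among other tested genes was not computed. The counts are therefore a description without a background, and not a trait of clock genes.

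The REV-ERB genes also differed from each other in the sign of their group difference. Nr1d1 had 312.0, 392.4 and 607.1 normalised reads in KO 1, 2 and 3, against 313.9, 250.0 and 162.2 in CON 1 to 3. KO 1 and CON 1 nearly coincided, which left the groups overlapping (log2 difference 0.57, SE 0.28, 95% interval -0.04 to 1.19, limma adjusted p = 0.223). Nr1d1 shares 263 exon bases, 8.5% of its exon sequence, with Thra on the opposite strand, and the labels do not say that counting used strand, so reads there cannot be assigned safely. Thra itself had 204.8 ± 25.9 normalised reads in KO and 257.8 ± 115.3 in CON (SD, n = 3 each; log2 difference -0.17, limma adjusted p = 0.752). Nr1d2 had 191.8, 180.6 and 155.0 normalised reads in KO 1, 2 and 3, against 382.7, 179.5 and 335.0 in CON 1 to 3. CON 1 and CON 3 were above every KO library and CON 2 lay within the KO range (log2 difference -0.44, SE 0.27, 95% interval -1.04 to 0.15, limma adjusted p = 0.332).

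Dbp, often the transcript with the widest daily swing in adult tissues, was scarce in every lens library. It had 12.3, 19.0 and 7.0 normalised reads in KO 1, 2 and 3, against 8.60, 28.8 and 7.51 in CON 1 to 3, from 5 to 31 reads per library. The groups overlapped, and the gene did not reach the level set for testing (difference on the deposited log2 scale -0.03). It shares 18% of its exon bases with Sphk2 on the opposite strand.

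**Figure D2:**
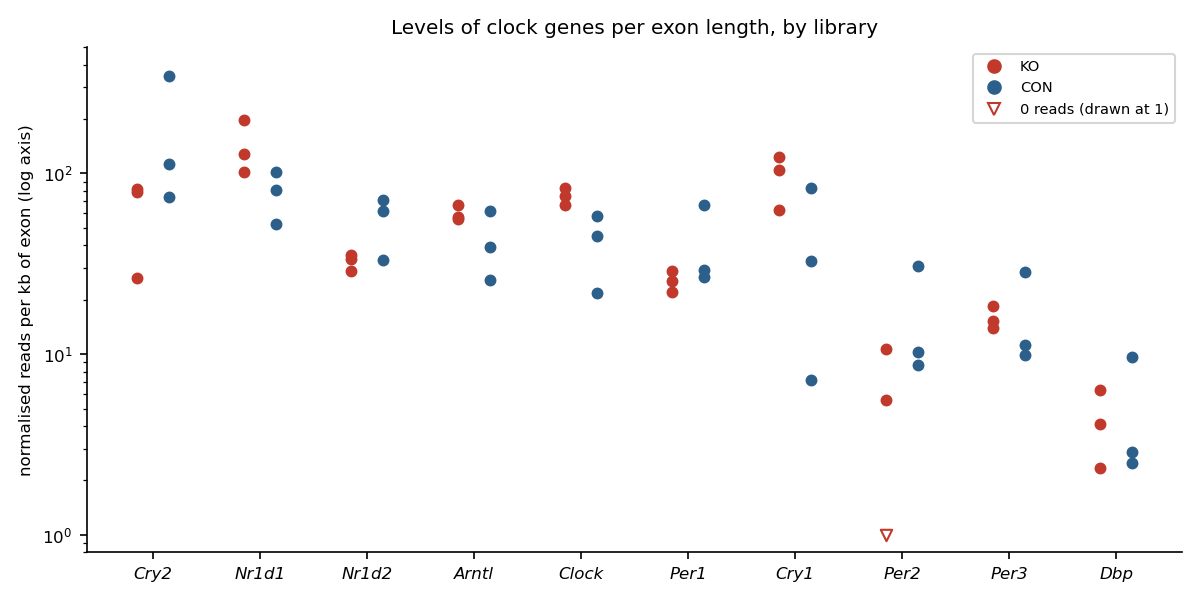
Normalised reads per kb of exon (log axis) of the 10 clock genes in each KO (left of each pair) and CON library, with genes in order of their CON mean. Dbp is lowest in both groups, with means of 4.26 in KO and 5.01 in CON, and Per2 in KO 1, with 0 reads, is drawn as an open triangle at 1.

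Levels can be set beside each other between genes only per length, and normalised reads per kb of exon were used for that. In KO lenses the order of group means was Nr1d1, Cry1, Clock, Cry2, Arntl, Nr1d2, Per1, Per3, Per2 and Dbp, where the level per kb was 142.1 for Nr1d1 and 4.26 for Dbp. Neighbours in this order overlapped in their library ranges except Arntl over Nr1d2, Per1 over Per3, and Per3 over Per2. In CON lenses the order was Cry2, Nr1d1, Nr1d2, Arntl, Clock, Per1, Cry1, Per2, Per3 and Dbp, where the level per kb was 177.8 for Cry2 and 5.01 for Dbp. All neighbours overlapped there except Per3 over Dbp. Cry2 was 4th in KO, at 62.3 ± 31.2 per kb, and 1st in CON, at 177.8 ± 147.3 per kb (SD, n = 3 each). Of the 11040 tested genes with an exon length, 0.4% had a lower mean level per kb than Dbp in KO and 2.0% in CON, a place largely set by the filter, which Dbp itself did not pass, whereas 56.0% in KO and 45.0% in CON lay below Nr1d1.

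The libraries were not equally spread. The SD of the deposited log2 values over the 9 tested members had a median of 0.13 in KO and 0.46 in CON, beside medians of 0.22 in KO and 0.35 in CON over all tested genes. Among the 7173 tested genes in the same range of mean level, those medians were 0.24 in KO and 0.38 in CON. The SD was larger in CON for 7 of the 9 members, and for 73.4% of all tested genes. Per1, Arntl and Nr1d2 had KO SDs of 0.10, 0.10 and 0.09, and CON SDs of 0.46, 0.43 and 0.37. Only Per2 (0.60 in KO and 0.46 in CON) and Nr1d1 (0.36 in KO and 0.30 in CON) had the larger SD in KO. CON 1 held the highest value of 4 of the 10 members, Per1, Per2, Cry2 and Nr1d2, and the highest value of 2290 of the 11468 tested genes. KO 2 (Cry1 and Arntl) and KO 3 (Clock and Nr1d1) held 2 members each, CON 2 (Dbp) and CON 3 (Per3) held 1 each, and KO 1 held 0.

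For 4 members, the 3 tested genes whose centred log2 values over the 6 libraries lay nearest to those of the member were listed. The measure was the root mean square distance in log2 units. Nearest to Per1 were Daxx (0.063), Dhx29 (0.071) and Trak1 (0.076), and nearest to Arntl were Borcs5 (0.054), Baz1b (0.075) and St3gal5 (0.080). Nearest to Nr1d1 were Nupl1 (0.096), Slc18b1 (0.101) and Plpbp (0.107), and nearest to Dbp were Rmnd5a (0.051), Mllt10 (0.052) and Socs5 (0.053). None of these genes belongs to the lists of clock genes used here. The short distances of Dbp go with its small spread, an SD of 0.16 over the 6 libraries.

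The rest of the clock network was taken from 3 lists with 39 genes, of which 35 were tested. Of these 5 were higher and 1 was lower in KO by the same limma fit, where 6.91% and 4.39% of all tested genes were called higher and lower. Their median log2 difference was -0.03. Among 11 tested partners in the loops, Bhlhe40 alone was called. Bhlhe40 encodes DEC1, a repressor that competes for E-boxes and also responds to hypoxia, growth factors and immune signals. It had 2171, 1795 and 1860 normalised reads in KO 1, 2 and 3, against 210.7, 134.6 and 402.5 in CON 1 to 3. The KO libraries lay far above the controls, with a ratio of means of 7.79 (log2 difference 2.42, SE 0.27, limma adjusted p = 0.000414). The call held whichever library was left out (adjusted p 0.000463 to 0.00284). Its close relative Bhlhe41 was too low to be tested, with 7.62, 14.7 and 29.1 normalised reads in KO 1 to 3 and 24.7, 89.7 and 37.6 in CON 1 to 3.

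Macrophages also express Bhlhe40, and macrophage markers were higher in the same libraries. Of 13 tested markers 9 were called higher in KO and none lower, where 6.91% of all tested genes were called higher. Their summed level was 5838 to 17914 normalised reads in KO and 1417 to 2414 in CON. All 13 had reads in every KO library, and Adgre1, Ptprc and Fcgr1 were at 0 in CON 2. The most abundant were C1qa, with 3744, 1917 and 1428 normalised reads in KO 1 to 3 and 358.0, 256.4 and 554.2 in CON 1 to 3, and C1qb, with means of 1734 in KO and 259.2 in CON. The marker sum was 17914 in KO 1 and 5838 in KO 3, where Bhlhe40 stood at 2171 and 1860. The part of these cells in the Bhlhe40 level was not tested.

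No other tested partner in the loops passed. Npas2, a paralog of Clock that can stand in for it, had 0 to 2.45 normalised reads in KO and 0 to 6.01 in CON. Arntl2, the paralog of Arntl, had 316.7, 226.5 and 273.4 normalised reads in KO 1 to 3 and 326.8, 442.3 and 549.7 in CON 1 to 3, so that all KO values lay under the CON values (log2 difference -0.47, limma adjusted p = 0.274). Of the ROR receptors, which activate Arntl against the REV-ERBs, Rora had a difference of -0.12 and Rorb one of 0.72 (limma adjusted p = 0.813 and 0.131). Rorb, which is also a gene of the developing retina, had 683.8, 941.5 and 1383 normalised reads in KO 1 to 3 and 550.4, 695.4 and 362.0 in CON 1 to 3. Nfil3, a repressor at the D-box that DBP activates, had 380.0, 271.2 and 281.5 normalised reads in KO 1 to 3 and 277.3, 25.6 and 40.6 in CON 1 to 3. CON 1 lay among the KO values, and the difference of 1.04 did not pass (limma adjusted p = 0.0968). It passed without CON 1 (1.52, adjusted p = 0.00683) and with total reads as library size (2.70, adjusted p = 0.0431). Tef and Hlf are relatives of DBP in the PAR bZIP family. Tef had 189.4 to 237.4 normalised reads in KO and 189.1 to 365.5 in CON. Hlf had 318.5, 54.5 and 77.0 in KO 1 to 3 and 332.2, 381.4 and 319.9 in CON 1 to 3, with KO 1 close to the controls (log2 difference -0.89, limma adjusted p = 0.119, and -1.29 with adjusted p = 0.0246 without KO 1). Ciart, whose window holds 3 E-boxes, had 159.5, 148.8 and 284.7 normalised reads in KO 1 to 3 and 82.8, 86.5 and 210.3 in CON 1 to 3 (log2 difference 0.37, limma adjusted p = 0.463).

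**Figure D3:**
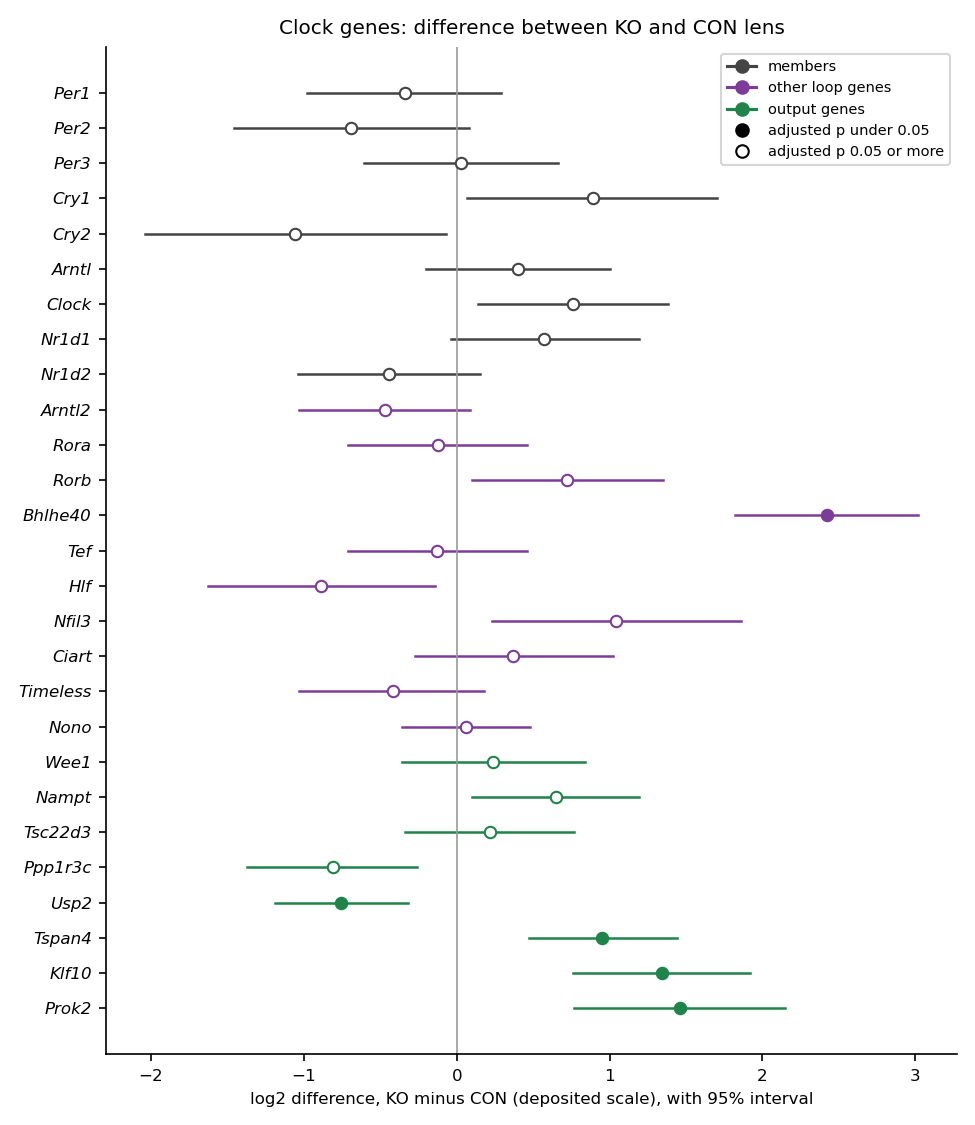
Log2 difference between KO and CON on the deposited scale (horizontal axis), with its 95% interval, for the tested members, other loop genes and output genes, where filled points had an adjusted p under 0.05. No member is filled, and the filled genes are Bhlhe40, Usp2, Tspan4, Klf10 and Prok2.

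Kinases, phosphatases and ubiquitin ligase parts that act on PER and CRY proteins formed a list of 17 genes, all tested. Ppp1cb, a catalytic subunit of protein phosphatase 1, was higher in KO, at 7959, 6146 and 6744 normalised reads in KO 1, 2 and 3, against 2625, 2455 and 4619 in CON 1 to 3 (log2 difference 1.11, SE 0.25, limma adjusted p = 0.0154). The groups lay apart, but the call was lost without KO 1 or CON 2 (adjusted p up to 0.0657), and 17.5% of its exon bases are shared with Gm43312 on the same strand. Usp2, a rhythmic ubiquitin protease that acts on clock proteins, was lower in KO, at 1431, 1486 and 1765 normalised reads in KO 1, 2 and 3, against 2520, 3013 and 2728 in CON 1 to 3 (log2 difference -0.76, SE 0.20, limma adjusted p = 0.0331). With total reads as library size, which moved the median of all tested genes to 0.86, the Usp2 difference was 0.02, or -0.84 relative to that median. The call held only without CON 1 among the fits with 1 library left out (adjusted p up to 0.169). The casein kinase genes that set the pace of the clock did not pass, with differences of 0.49 for Csnk1d and -0.46 for Csnk1e (limma adjusted p = 0.268 and 0.257).

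Among 11 tested output genes, 3 were called higher and 1, Usp2, was called lower. Over all tested genes, 6.91% were called higher and 4.39% lower. Usp2 is also on the list of genes that act on PER and CRY proteins, so this is the call already given. Prok2, the secreted ligand prokineticin 2 that carries signals of the brain's clock, had 375.9, 858.3 and 1085 normalised reads in KO 1, 2 and 3, against 166.6, 163.4 and 168.2 in CON 1 to 3 (log2 difference 1.46, SE 0.31, limma adjusted p = 0.0122). The controls were nearly identical and KO 1 was the lowest KO library, and leaving out either KO 2 or KO 3 ended the call (adjusted p up to 0.0628). Of 8 tested retina markers 1 was called higher in KO and none was called lower in the limma fit. The 12 retina markers summed to 8793 to 14150 normalised reads in KO and 8497 to 14479 in CON, mostly from Prox1, which lens also expresses. Rcvrn was at 0 in all CON libraries, Elavl3 in CON 1 and CON 3, Atoh7 in CON 1, and Nrl in KO 1 and CON 3. The part of retinal cells in the Prok2 level was not tested.

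Klf10, a zinc finger repressor that is rhythmic in liver and is also induced by TGF-beta, had 2015, 2032 and 2218 normalised reads in KO 1, 2 and 3, against 1124, 471.1 and 678.9 in CON 1 to 3 (log2 difference 1.34, SE 0.27, limma adjusted p = 0.00837). Its groups lay apart and the call held whichever library was left out (adjusted p up to 0.0357). Tspan4, a tetraspanin, had 1188, 1066 and 1075 normalised reads in KO 1, 2 and 3, against 446.1, 589.7 and 453.6 in CON 1 to 3 (log2 difference 0.95, SE 0.22, limma adjusted p = 0.0178). Its call did not survive the loss of any KO library (adjusted p up to 0.0873), and 13.4% of its exon bases overlap Chid1 on the opposite strand. When all genes entered the limma fit without the filter on low values, only Bhlhe40 and Tspan4 of the 6 called clock genes passed, and the adjusted p was 0.117 for Klf10, 0.147 for Prok2, 0.161 for Ppp1cb and 0.0558 for Usp2. Prok2 also missed the threshold with voom on recovered reads and the size factors (adjusted p = 0.0648), where its log2 difference was 2.08.

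**Figure D4:**
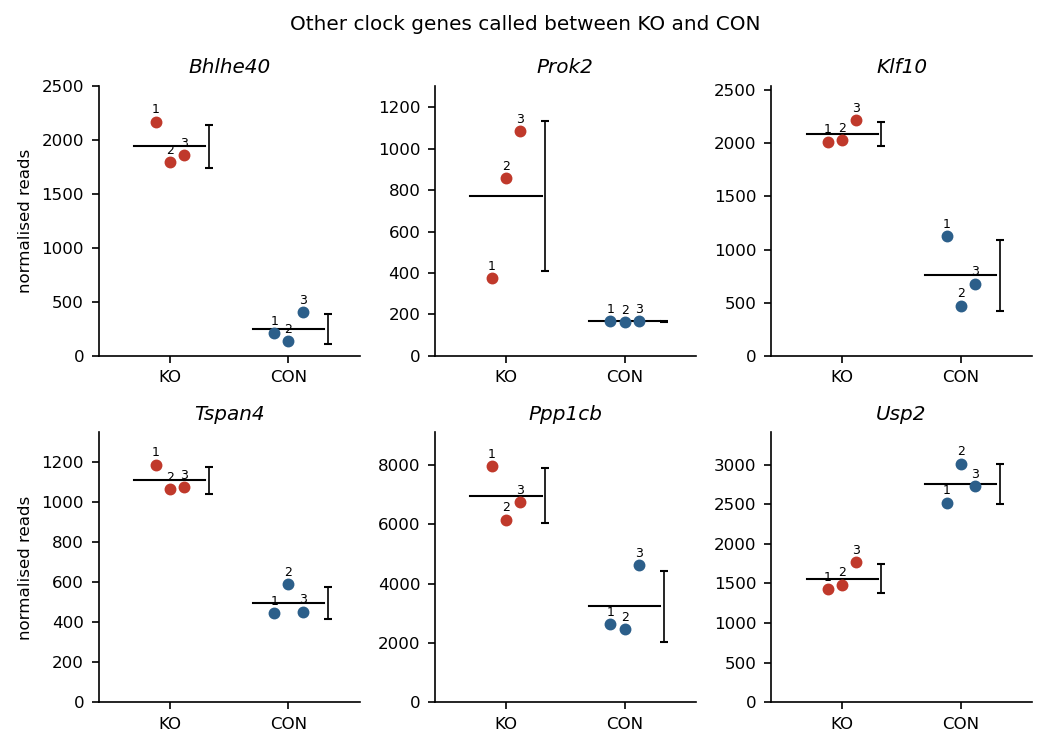
Normalised reads (vertical axes from 0) of the 6 other clock genes called between KO and CON, where points are libraries with their replicate number, horizontal bars are means and vertical bars ± 1 SD (n = 3). The KO libraries lie above the CON libraries in 5 panels and below them for Usp2. With total reads as library size the Usp2 difference was 0.02, or -0.84 relative to the median of all tested genes.

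Per1 and Per2 can be induced as early genes, so the early genes known to reset clocks and the targets of the glucocorticoid receptor were set beside them. Of 25 such genes other than the members 20 were tested, 11 were called higher in KO and none lower, where 6.91% of all tested genes were called higher. Taken by list, with members and shared genes included, 7 of 11 tested early genes and 4 of 11 tested glucocorticoid genes were called higher. Fos had 2176, 1850 and 3647 normalised reads in KO 1, 2 and 3, against 0, 121.8 and 39.1 in CON 1 to 3. Atf3 was higher by 3.03 on the log2 scale, and of the glucocorticoid list Cdkn1a by 4.89 and Mt1, a metallothionein, by 1.90 (limma adjusted p at most 0.00103). Against these, Per1 had a difference of -0.34 and Per2 one of -0.69, and neither was called. Whether the Period genes differ from the early genes in their change was not tested. The receptor gene Nr3c1 had a difference of 0.50 and its target Tsc22d3 one of 0.22, and neither passed (limma adjusted p = 0.231 and 0.638). Of the same list, Fkbp5 at 0.40, Sgk1 at -0.36 and Errfi1 at -0.16 did not pass either (limma adjusted p = 0.496, 0.453 and 0.833). Klf9 at 0.97 and Mt2 at 1.25 were the remaining called genes of that list, both higher in KO (limma adjusted p = 0.0231 and 0.013). Epithelium markers went both ways in the limma fit (2 called higher and 3 called lower of 8 tested, with Foxe3 at 0 in KO 3). Of 7 tested vessel markers 1 had an unadjusted p under 0.05 and 0 were called in that fit. The most abundant of these lists were Cryab (means of 650271 in KO and 979784 in CON), Gja1 (16772 in KO and 16953 in CON), Rgs5 (1232 in KO and 1132 in CON) and Cldn5 (779.4 in KO and 820.3 in CON).

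**Figure D5:**
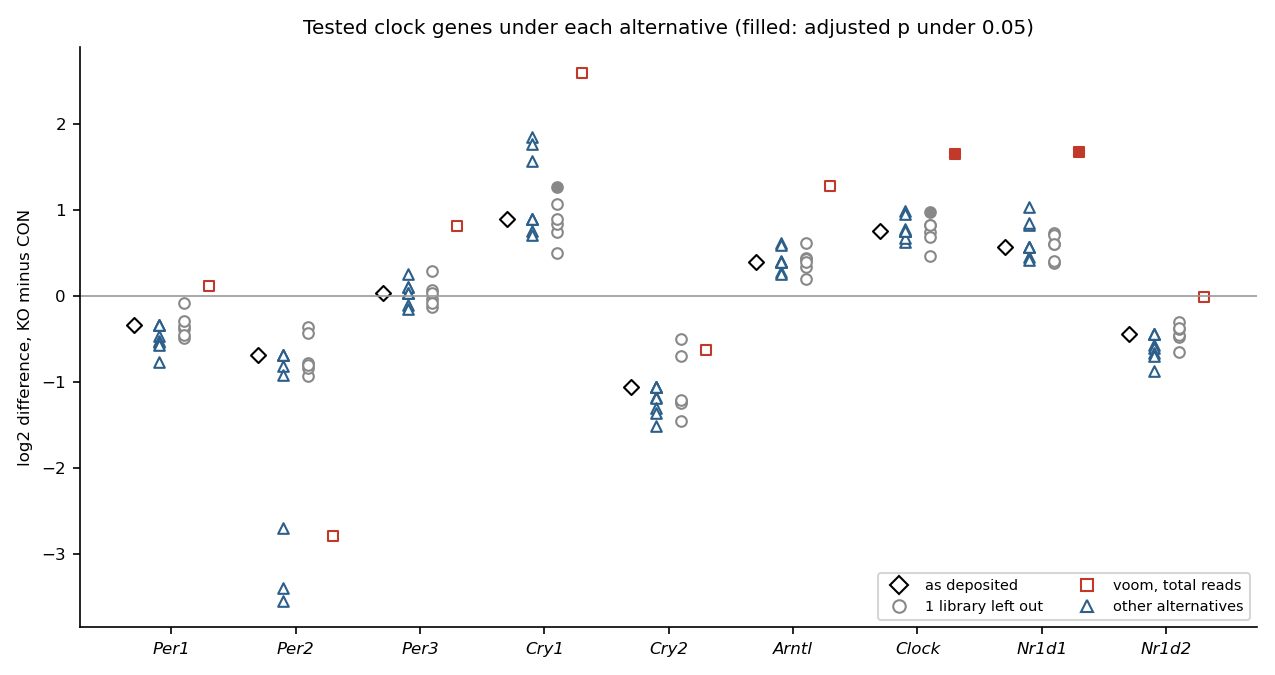
Log2 difference between KO and CON (vertical axis) of the 9 tested clock genes as deposited and under each alternative, where filled symbols had an adjusted p under 0.05. The filled points are Clock and Nr1d1 with total reads as library size, and Cry1 and Clock without CON 1.

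Scaling of the libraries changed the outcome for Clock and Nr1d1. With voom on recovered reads and the size factors 0 members were called. With total reads as library size, Clock (log2 difference 1.65, adjusted p = 0.0198) and Nr1d1 (1.68, adjusted p = 0.0402) were higher, in a fit that gave all tested genes a median of 0.86. Relative to that median the differences were 0.79 for Clock, 0.82 for Nr1d1, 1.73 for Cry1, -1.49 for Cry2 and -0.74 for Per1.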

How the data were processed

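Lens RNA of 3 Gclc KO and 3 Gclc CON libraries was measured by RNA sequencing. The authors deposited log2 values per gene after a variance-stabilising transformation. The authors' tools, per the submitters' processing notes, include Trimmomatic, HISAT2 2.1.0, featureCounts 1.6.4 and DESeq2 (given as 2.11.0.6), and the build named is mm9. Per the labels' protocols, total RNA and a low-input kit were used. The transformation was inverted per library, and 100.0% of values came within 0.1 of whole reads (largest distance 0.017). Size factors were scaled to a geometric mean of 1. Reads carry no molecular identifiers, so a limit at 0 reads covers counting error only. Entrez identifiers were matched to symbols with RefSeq GRCm38.p6 (25275 matched), and exon lengths and overlaps came from GENCODE M21 with no coordinate of it printed.

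Differences of KO minus CON were fitted by limma (version 3.58.1, R 4.3.3, mean-variance trend) to genes whose mean was at least 1 unit above the lowest value, 6.504, and calls used a Benjamini-Hochberg adjusted p under 0.05 over 11468 genes. The fit was also run on simulated reads with the same spread set in both groups. The libraries here were not equally spread, so no conclusion about the calls is drawn from that run. Equal replicate numbers were not used as pairs, since their deviations correlated at -0.364, -0.128 and -0.14. Members, gene lists and the rule for named genes (all members, called genes of short lists, a fixed set of loop genes, the 2 most abundant markers of each cell type, the 2 smallest p of the early and glucocorticoid lists, and the nearest genes by distance) were chosen with earlier results of these data known. Further listed genes were named with their values in view. A few listed genes are not reported here.

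The fits were repeated without the filter, with a filter of 3 units, with library medians made equal, after quantile normalisation, with voom on the recovered reads under 3 kinds of library size, with log2 of normalised reads plus 1, no variance trend, a replicate block, a minimum difference of 1 and each library left out.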

Additional observations from a re-analysis of the deposited data

How the results depend on the processing

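The count of clock members called was 0 in all fits except those with total reads as library size and without CON 1. In each of those it was 2. The filter of 3 units left only 2 members tested, so its count of 0 does not cover the 9. Leaving out each library gave 0 to 2 members, 3 to 8 other clock genes, 7 to 12 early and glucocorticoid genes and 533 to 1943 genes in all, against 0, 6, 11 and 1297. With no filter, the counts were 2 other clock genes, 6 early and glucocorticoid genes and 357 genes in all. With total reads they were 13 other clock genes and 3399 in all, and with reads outside crystallins 7 early and glucocorticoid genes and 863 in all, where the median over all genes moved to 0.23. With the filter of 3 units they were 2 early and glucocorticoid genes and 802 in all, as fewer genes were tested, and voom with the size factors called 6 early and glucocorticoid genes. The share of higher genes among all calls was 61.1% as deposited, 97.5% with total reads, 80.7% with no filter, 42.4% with the filter of 3 units, 47.3% with equal medians and 47.1% with voom and the size factors. With total reads, which moved the median of all tested genes to 0.86, Per1 stood at 0.12 and Usp2 at 0.02, above 0, but at -0.74 and -0.84 relative to that median. The sign turned for Per3 with equal medians (-0.10), quantile normalisation (-0.15) and without KO 2 (-0.04), CON 1 (-0.13) or CON 2 (-0.08), and leaving out each library gave Per3 -0.13 to 0.29. The cause was not tested. With the replicate number as a block, which the labels do not tie to a shared animal or day, 0 members, 4 other clock genes and 914 genes in all were called. Per2 differences ran from -0.36 to -3.55 over the alternatives, and KO 1 held 0 reads of it. Precision in CON 2 was limited by its depth (16 reads of Per2 and 9 of Dbp).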
